A study of Homo sapiens with 6 samples.

Results

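The genes described are 10 that belong to the amino acid stress programme of the transcription factor ATF4 and to serine synthesis. They are ATF4, DDIT3, DDIT4, TRIB3, ASNS, CHAC1, SESN2, PSAT1, PHGDH and SHMT2, and were picked by symbol from the 31835 genes listed in the deposited table; each symbol occurred once there. Their mRNA was sequenced in MDA-MB-231, a widely used breast cancer cell line of the triple-negative kind that looks mesenchymal. In one group of 3 libraries the cells overexpressed ADAMTS1, a secreted metalloprotease with thrombospondin motifs, and in the other group of 3 libraries they carried the vector. Both groups share the same line, and no further treatment is given in the labels. The form of ADAMTS1 in the construct, the promoter driving it, and whether pools or single clones of cells were used are not stated in the labels.

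When amino acids run short, the endoplasmic reticulum is stressed or heme is lacking, kinases phosphorylate the initiation factor eIF2alpha. Bulk translation then slows, while the ATF4 message, whose upstream reading frames normally hold it back, is translated more. ATF4 protein is thus set to a large extent by translation, and an mRNA level does not report it. The protein pairs with C/EBP family factors on composite elements and switches on genes for amino acid supply, among them the serine pathway enzymes, and for negative feedback and cell death. In breast cancer, serine synthesis is known for amplification or high expression of PHGDH in some tumours, and MDA-MB-231 is known as a line with low PHGDH.

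RefSeq promoter windows (GRCh38.p14) were at hand for 9 of the 10 genes. The 250 bases before each RefSeq start were searched on both strands for the core of the C/EBP-ATF response element, TGATGNAA. Windows of ASNS and CHAC1 held it; among all 27305 genes with a window, 3.89% did. The cAMP response element TGACGTCA was in none of the 9 genes' windows, against 2.03% of all genes, and neither was the endoplasmic reticulum stress element in its consensus form, against 0.0916%. The core of the hypoxia response element, ACGTG, a motif added after the values of DDIT4 were seen, was in the windows of ATF4 and DDIT4 and in those of 21.7% of all genes. Its matches on both strands in ATF4 overlap each other. The RefSeq start is that of the deposited table for SESN2 and PSAT1; for the other 7 genes, CHAC1, ASNS and DDIT4 among them, it lies inside the table's gene span, and other starts were not searched. A match says only that these letters are present, and its absence only that they are not in this window.

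The windows of ASNS (chr7:97872409-97872658, minus strand), CHAC1 (chr15:40953221-40953470, plus strand) and DDIT4 (chr10:72273674-72273923, plus strand) are printed from 5′ to 3′. The first pair carries the ATF4-type core, and DDIT4 is one of the 4 genes whose groups did not overlap. Capitals mark TGATGNAA or its reverse complement in ASNS and CHAC1, and ACGTG in DDIT4.
ASNS: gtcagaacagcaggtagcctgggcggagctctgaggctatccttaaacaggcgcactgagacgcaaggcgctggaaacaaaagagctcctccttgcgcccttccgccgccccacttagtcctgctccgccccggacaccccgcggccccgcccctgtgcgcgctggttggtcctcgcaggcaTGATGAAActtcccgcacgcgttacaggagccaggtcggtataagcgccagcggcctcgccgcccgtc
CHAC1: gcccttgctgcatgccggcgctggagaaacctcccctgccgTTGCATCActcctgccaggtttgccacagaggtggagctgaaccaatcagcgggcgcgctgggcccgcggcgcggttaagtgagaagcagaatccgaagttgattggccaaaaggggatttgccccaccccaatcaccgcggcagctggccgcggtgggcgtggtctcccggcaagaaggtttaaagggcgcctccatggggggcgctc
DDIT4: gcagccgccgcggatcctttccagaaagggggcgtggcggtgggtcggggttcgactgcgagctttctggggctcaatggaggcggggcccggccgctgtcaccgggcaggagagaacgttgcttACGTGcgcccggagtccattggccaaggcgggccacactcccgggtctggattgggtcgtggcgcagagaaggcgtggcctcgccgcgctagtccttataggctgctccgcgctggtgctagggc
The core begins 68 bases before the start in ASNS as TGATGAAA, and 209 bases before the start in CHAC1 as TTGCATCA. In DDIT4 the ACGTG begins 125 bases before the start.

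Values are FPKM as the authors deposited them, that is, fragments divided by transcript length and by library size, so levels can be compared between genes. A level is given as the mean ± SD of 3 libraries, and a change is the difference of ADAMTS1 from vector cells in log2(FPKM + 1), with its standard error from limma fitted across 11897 genes with a mean of at least 1 FPKM. The absolute number of reads is unknown; steps between low values put the depth of the ADAMTS1 libraries at 1.41, 1.04 and 1.43 times that of vector replicate 1, and that of the other vector libraries at 1.17 and 1.26 times. ADAMTS1 itself was at 499, 462 and 501 FPKM in the ADAMTS1 libraries, against 6.56, 6.72 and 6.99 FPKM in the vector libraries, so the libraries matched their labels. Markers of the line were present (VIM 323 ± 10.3 FPKM in ADAMTS1 cells and 308 ± 5.71 FPKM in vector cells), and of 8 luminal and epithelial genes ESR1 (0.0332 FPKM in ADAMTS1 cells and 0.0192 FPKM in vector cells), CDH1 (0.0145 and 0.00638 FPKM), PGR (0.113 and 0.136 FPKM) and GATA3 (0.183 and 0.161 FPKM) were close to 0. The other 4 were expressed, with KRT8 at 61.5 and 62.0 FPKM, ERBB2 at 5.61 and 5.77 FPKM, EPCAM at 3.28 and 2.74 FPKM and FOXA1 at 1.23 and 1.14 FPKM. Of the fibroblast, haematopoietic and endothelial marker lists, 15 of 19 genes were listed, with a summed level per list of at most 1.45 FPKM in ADAMTS1 libraries and 1.57 FPKM in vector libraries. Whether libraries of one group are separate cultures is not stated, and the p-values therefore reflect library-to-library spread that may be technical.

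Of the 10 genes, 8 passed the filter on low values and were tested; ASNS and PHGDH did not. By limma 0 of the 8 passed an adjusted p of 0.05, where 0.0672% of all tested genes did, 8 in number; for lower values in ADAMTS1 cells alone the share was 0.00841%. Their adjusted p ranged from 0.155 for ATF4 to 0.979 for DDIT3. An unadjusted p under 0.05 was reached by 6 of the 8 (ATF4, DDIT4, SHMT2, PSAT1, TRIB3 and CHAC1), each with a lower mean in ADAMTS1 cells; in that direction 6.78% of all tested genes reached it. In the other direction 0 of the 8 did, against 5.42%. The change was negative in 7 of the 8 genes, DDIT3 being the exception, against 53.5% of all tested genes. In 4 genes (ATF4, DDIT4, PSAT1 and SHMT2) every ADAMTS1 library lay below every vector library, which held for 10.6% of tested genes, and in 0 genes did they lie above, against 8.15%. The median change of the 8 genes was −0.13, and that of all tested genes was −0.0078. The median of the genes also differed between vector libraries. Set against the vector mean of each gene, the median of the 8 was −0.15, −0.10 and −0.14 in the ADAMTS1 libraries. In the vector libraries it was 0.077, 0.0048 and −0.062. The median of all tested genes was −0.0041, −0.0089 and −0.0052 in the ADAMTS1 libraries and 0.0026, 0.00063 and −0.0025 in the vector libraries. Of the 8 genes, 7, 8 and 6 lay below the vector mean in the ADAMTS1 libraries and 1, 4 and 7 in the vector libraries. By this count vector replicate 3 resembled the ADAMTS1 libraries, but it lay above all of them in ATF4, DDIT4, PSAT1 and SHMT2. Each vector library is part of the vector mean, so a high one places others below it. The share of all tested genes below the vector mean was not computed. In vector replicate 3, PSAT1 (−0.0035) and ATF4 (−0.015) were close to the vector mean. SESN2 went the other way there, at 0.036, and was at −0.23 in vector replicate 2. What sets the vector libraries apart from each other was not tested. The bound of a 95% interval farthest from 0 was −0.73, for CHAC1. In whole cultures, fewer cells that make a transcript and less transcript per cell cannot be told apart.

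**Figure D1:**
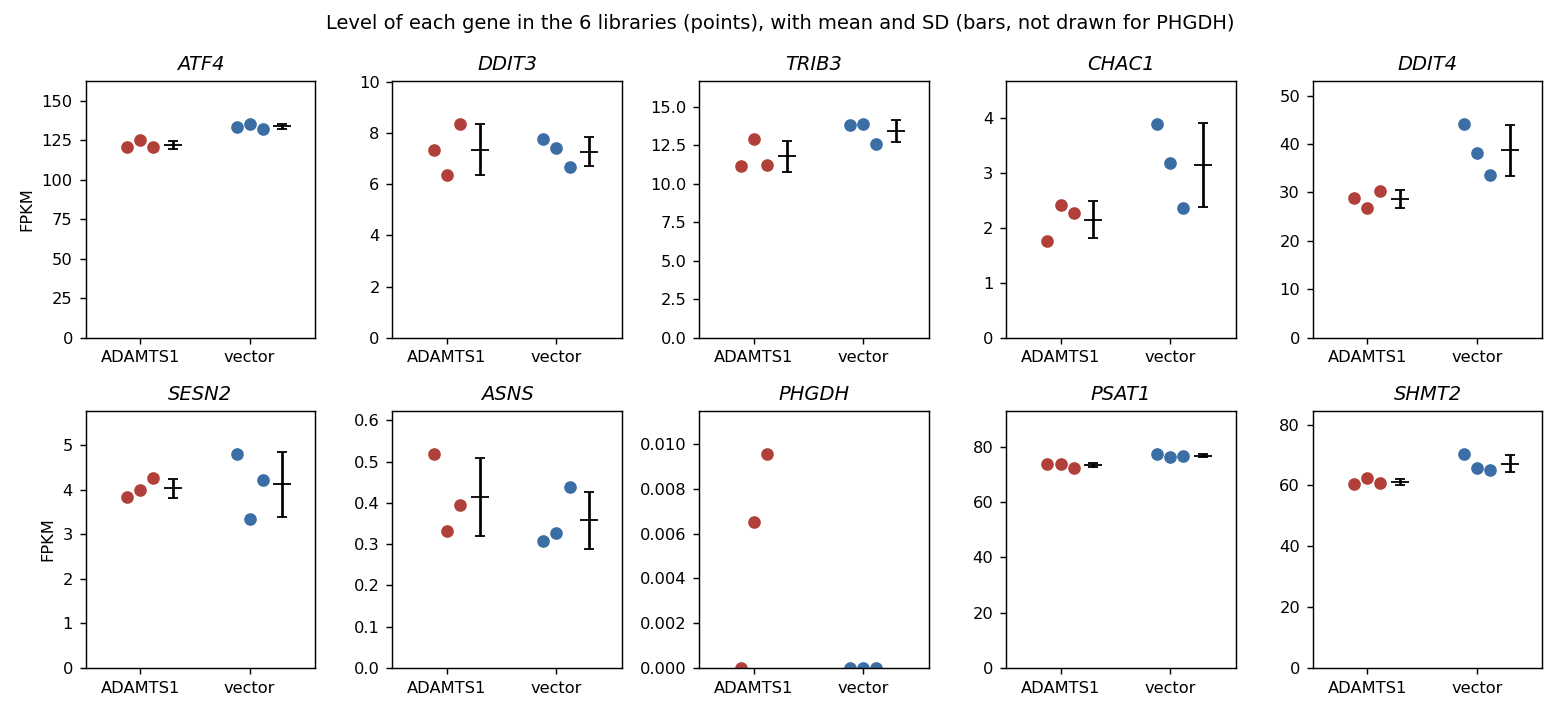
FPKM (vertical axis, from 0, a scale per panel) of the 10 genes in the 3 ADAMTS1 libraries (red points) and the 3 vector libraries (blue points); black bars are the mean and SD, not drawn for PHGDH. The ADAMTS1 points lie below all vector points in ATF4, DDIT4, PSAT1 and SHMT2, and the groups overlap in the other panels.

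The transcription factor mRNAs were those of ATF4 and DDIT3. ATF4 (ENSG00000128272, hg38 chromosome 22, 39519695 to 39522683, plus strand) had 121, 125 and 121 FPKM in the ADAMTS1 libraries, against 133, 135 and 132 FPKM in the vector libraries. The groups did not overlap, and each varied little, with an SD of 2.02% of the mean in ADAMTS1 cells and 1.16% in vector cells. The mean was 122 ± 2.47 FPKM in ADAMTS1 cells and 134 ± 1.55 FPKM in vector cells, a ratio of 0.914, with a change of −0.13 ± 0.024 (95% interval −0.19 to −0.072, limma adjusted p = 0.155). By unadjusted p the gene stood at place 75 of 11897. It was the most abundant of the 10 in every library and held place 240 of all listed genes in ADAMTS1 cells and place 207 in vector cells. Its pseudogenes ATF4P3 and ATF4P4 were at no more than 0.755 FPKM in any library.

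DDIT3 (ENSG00000175197, chromosome 12, 57516588 to 57521737, minus strand) encodes CHOP, a C/EBP family factor that ATF4 induces and that promotes cell death under lasting stress. It had 7.36, 6.35 and 8.37 FPKM in the ADAMTS1 libraries, against 7.78, 7.40 and 6.67 FPKM in the vector libraries. The highest and the lowest of the 6 values were both in ADAMTS1 cells, and the change of 0.0082 ± 0.093 (limma adjusted p = 0.979) had a 95% interval of −0.21 to 0.23. DDIT3 overlaps MARS1 by 982 bases and MBD6 by 1028 bases, both on the opposite strand. MARS1, the cytosolic methionyl-tRNA synthetase, was more abundant, at 27.3, 28.7 and 28.7 FPKM in the ADAMTS1 libraries and 30.3, 29.4 and 30.5 FPKM in the vector libraries. MBD6 was at 6.29, 6.18 and 6.24 FPKM in the ADAMTS1 libraries and 6.85, 6.70 and 6.64 FPKM in the vector libraries. No strand setting is given in the sources used here, so reads of the overlap cannot be assigned, and their part in the DDIT3 level was not tested.

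Feedback and death genes downstream of ATF4 and CHOP were represented by TRIB3 and CHAC1. TRIB3 (ENSG00000101255, chromosome 20, 362835 to 397559, plus strand) encodes a pseudokinase that binds ATF4 and AKT and dampens ATF4 activity. Its level was 11.2, 12.9 and 11.2 FPKM in the ADAMTS1 libraries, against 13.8, 13.9 and 12.6 FPKM in the vector libraries. ADAMTS1 replicate 2 lay above vector replicate 3, so the groups overlapped by that 1 pair. The change was −0.18 ± 0.064 (95% interval −0.33 to −0.028, limma adjusted p = 0.342).

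CHAC1 (ENSG00000128965, chromosome 15, 40952962 to 40956512, plus strand), shown above with the ATF4-type core in its promoter, encodes an enzyme that cleaves glutathione. It had 1.76, 2.40 and 2.27 FPKM in the ADAMTS1 libraries, against 3.89, 3.18 and 2.36 FPKM in the vector libraries. Vector replicate 3 was as low as the ADAMTS1 libraries, while the other vector libraries were higher than all of them. The ratio of means was 0.683, the smallest of the 8 tested genes, and the SD was 15.9% of the mean in ADAMTS1 cells and 24.4% in vector cells. The change of −0.39 ± 0.15 had a 95% interval of −0.73 to −0.043 (limma adjusted p = 0.363). Without vector replicate 1 it was −0.26, and without vector replicate 3 it was −0.53. CHAC2, its relative that acts on glutathione more slowly, was at 18.3 ± 0.947 FPKM in ADAMTS1 cells and 16.4 ± 0.953 FPKM in vector cells, the opposite direction, with groups that did not overlap (change 0.15 ± 0.053, limma adjusted p = 0.337).

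DDIT4 and SESN2 encode stress-induced inhibitors of the growth kinase complex mTORC1. DDIT4 (ENSG00000168209, chromosome 10, 72273919 to 72276036, plus strand), also called REDD1 and known to respond to hypoxia and glucocorticoids as well as to ATF4, had 28.8, 26.8 and 30.3 FPKM in the ADAMTS1 libraries, against 44.2, 38.2 and 33.6 FPKM in the vector libraries. All ADAMTS1 values lay below all vector values, and the vector libraries were more spread, the SD being 6.15% of the mean in ADAMTS1 cells and 13.7% in vector cells. The mean was 28.6 ± 1.76 FPKM in ADAMTS1 cells and 38.7 ± 5.29 FPKM in vector cells, a ratio of 0.741. The change was −0.41 ± 0.093 (95% interval −0.63 to −0.19, limma adjusted p = 0.195), the largest of the 8 genes on this scale. With a pseudocount of 0.1 that of CHAC1 was larger (−0.51, against −0.42 for DDIT4), as it was without ADAMTS1 replicate 2 or vector replicate 3. By level the gene held place 1538 of all listed genes in ADAMTS1 cells and place 1089 in vector cells.

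SESN2 (ENSG00000130766, chromosome 1, 28259518 to 28282491, plus strand), a leucine-binding regulator of mTORC1, had 3.83, 3.99 and 4.26 FPKM in the ADAMTS1 libraries, against 4.80, 3.35 and 4.22 FPKM in the vector libraries. The ADAMTS1 values fell between the lowest and the highest vector value, and the change was −0.017 ± 0.10 (95% interval −0.26 to 0.23, limma adjusted p = 0.960).

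ASNS (ENSG00000070669, chromosome 7, 97851677 to 97872542, minus strand) makes asparagine and is a standard ATF4 target, with the ATF4-type core in the window printed above. It was scarcely detected, at 0.519, 0.332 and 0.395 FPKM in the ADAMTS1 libraries and 0.308, 0.328 and 0.438 FPKM in the vector libraries. These values overlap, and with no filter on low values the change was 0.059 ± 0.086 (limma adjusted p = 0.856). Another entry on the same strand, ENSG00000284707, covers nearly all of the gene (20855 bases) and was at 0.663, 0.442 and 0.960 FPKM in the ADAMTS1 libraries and 0.607, 0.672 and 0.646 FPKM in the vector libraries. A short entry inside the span on the opposite strand, ENSG00000226744 (123 bases), was between 0.405 and 2.93 FPKM. No entry of the locus exceeded 2.93 FPKM in any library. Whether reads shared by these entries were divided among them or left out is not given. If they were left out, the listed values would understate ASNS mRNA.

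Serine synthesis runs from PHGDH, which oxidises 3-phosphoglycerate, through PSAT1, the phosphoserine aminotransferase, to the phosphatase PSPH, and SHMT2 then converts serine to glycine in mitochondria and feeds folate metabolism. PHGDH (ENSG00000092621, chromosome 1, 119648411 to 119744218, plus strand) was listed at 0 in the 3 vector libraries and in ADAMTS1 replicate 1, and at 0.00654 and 0.00956 FPKM in ADAMTS1 replicates 2 and 3. PSAT1, its neighbour in the pathway, was the second most abundant of the 10 genes in every library. The first step was thus next to undetected in both groups beside an abundant second step.

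PSAT1 (ENSG00000135069, chromosome 9, 78297125 to 78330093, plus strand) had 73.9, 73.8 and 72.4 FPKM in the ADAMTS1 libraries, against 77.3, 76.2 and 76.5 FPKM in the vector libraries. The groups did not overlap, and the SD was only 1.10% of the mean in ADAMTS1 cells and 0.749% in vector cells, the smallest in both groups among the 9 genes other than PHGDH. The change was −0.063 ± 0.022 (95% interval −0.12 to −0.011, limma adjusted p = 0.335), a ratio of means of 0.957.

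SHMT2 (ENSG00000182199, chromosome 12, 57229573 to 57234935, plus strand) had 60.4, 62.3 and 60.9 FPKM in the ADAMTS1 libraries, against 70.3, 65.8 and 65.2 FPKM in the vector libraries. Again the groups did not overlap, with vector replicate 1 the highest, and the change was −0.13 ± 0.034 (95% interval −0.21 to −0.050, limma adjusted p = 0.238). Antisense entries over SHMT2 were at no more than 0.172 FPKM. In ATF4, DDIT4, PSAT1 and SHMT2 an exact two-sided permutation test of the 3 against 3 libraries gave p = 0.1, the smallest that this design allows. Groups that do not overlap always give this value, so it adds nothing to their being apart. In either direction the groups did not overlap in 18.8% of all tested genes.

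**Figure D2:**
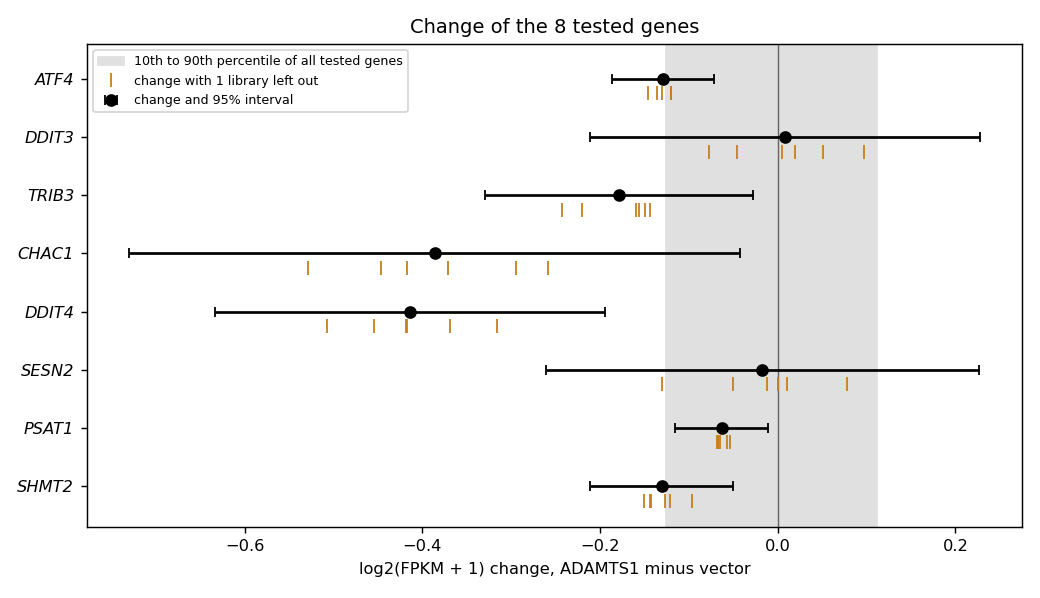
Change of the 8 tested genes (horizontal axis, log2(FPKM + 1), ADAMTS1 minus vector) with 95% intervals (black); orange ticks are the changes with 1 library left out, and the grey band spans the 10th to 90th percentile of all tested genes (−0.13 to 0.11). DDIT4 and CHAC1 lie farthest to the left at −0.41 and −0.39, DDIT3 and SESN2 lie near 0, and 0 of the 8 passed the adjusted threshold.

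The order of levels among the 10 genes was the same in all 6 libraries. From high to low it was ATF4, PSAT1, SHMT2, DDIT4, TRIB3, DDIT3, SESN2, CHAC1, ASNS and PHGDH. Taken over the 6 libraries, the ranges of neighbours in this order overlapped for SESN2 (3.35 to 4.80 FPKM) and CHAC1 (1.76 to 3.89 FPKM), and not for the other neighbours. Set against ATF4 within each library, DDIT4 was at 0.238, 0.214 and 0.251 of the ATF4 level in the ADAMTS1 libraries and 0.331, 0.282 and 0.254 in the vector libraries. Its groups thus stayed apart after division by ATF4, though ADAMTS1 replicate 3 and vector replicate 3 were close. PSAT1 was at 0.612, 0.590 and 0.600 of ATF4 in the ADAMTS1 libraries and 0.580, 0.563 and 0.578 in the vector libraries, which was the opposite order. For SHMT2 (0.498 to 0.504 in ADAMTS1 libraries and 0.486 to 0.527 in vector libraries) and for TRIB3, CHAC1, DDIT3 and SESN2 the ratio to ATF4 overlapped between the groups. These ratios were not tested.

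Enzymes around the serine pathway were split between higher and lower values. Of 26 other serine, glycine and one-carbon genes, 25 were listed and 19 tested; 0 passed by limma, 2 had ADAMTS1 libraries all above and 1 all below the vector libraries, and the median change was 0.00079. PSPH, the last enzyme of serine synthesis, was at 12.2 ± 1.21 FPKM in ADAMTS1 cells and 12.1 ± 1.27 FPKM in vector cells. Its pseudogene PSPHP1 was at 18.1 to 24.0 FPKM in ADAMTS1 libraries and 20.8 to 30.1 FPKM in vector libraries, and near-identical sequence makes the division of reads between them uncertain. The cytosolic SHMT1 was at 5.40 FPKM in ADAMTS1 cells and 5.76 FPKM in vector cells, against 61.2 and 67.1 FPKM for SHMT2. SFXN1, the mitochondrial serine carrier, was at 28.6 ± 0.810 FPKM in ADAMTS1 cells and 30.5 ± 0.652 FPKM in vector cells (change −0.092 ± 0.032, limma adjusted p = 0.333). ATIC, which uses a folate one-carbon unit in purine synthesis, was at 32.8 ± 0.647 FPKM in ADAMTS1 cells and 29.9 ± 1.21 FPKM in vector cells (change 0.13 ± 0.036, adjusted p = 0.254). GLDC, the glycine decarboxylase, was near 0, at 0.0128 and 0.0193 FPKM.

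**Figure D3:**
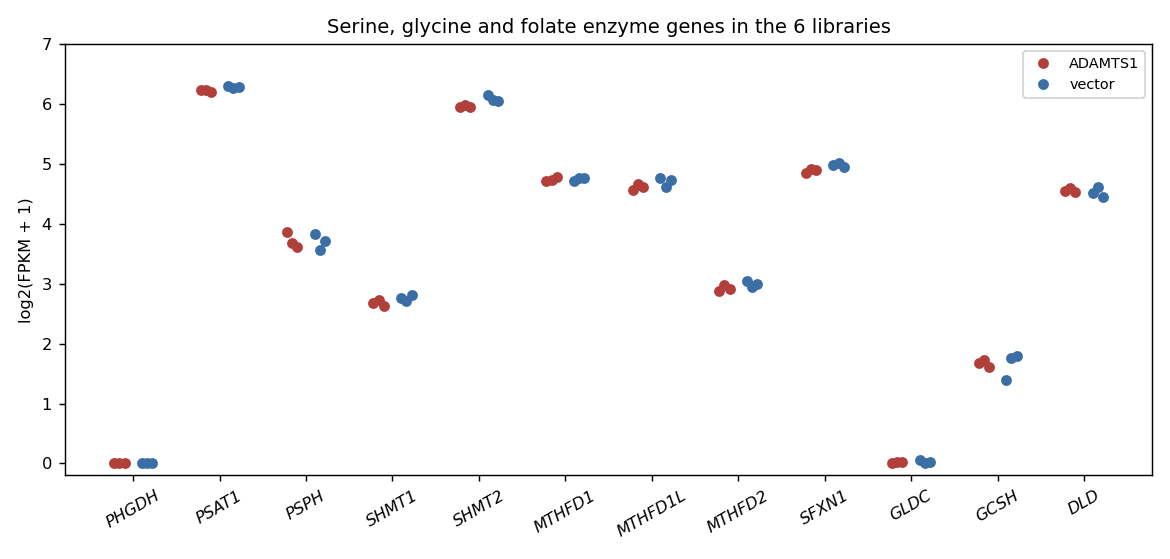
Level, as log2(FPKM + 1), of 12 genes of serine, glycine and folate metabolism in the 3 ADAMTS1 libraries (red) and the 3 vector libraries (blue). PHGDH and GLDC sit at the bottom near 0 in all 6 libraries while PSAT1 and SHMT2 are the highest, and the difference between groups is small beside the difference between genes.

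Upstream of ATF4, the message levels of the eIF2alpha kinases and their antagonists were close between the groups. Of 19 such genes 18 were tested, 0 passed by limma and the median change was 0.0025. The kinase genes EIF2AK1, EIF2AK2 and EIF2AK4 were at 21.3, 10.6 and 10.7 FPKM in ADAMTS1 cells and 21.9, 10.3 and 10.6 FPKM in vector cells. EIF2AK3, which encodes PERK, was below the filter, at 0.797 and 0.816 FPKM. PPP1R15A, the stress-induced phosphatase subunit GADD34 and itself an ATF4 target, was at 78.1 FPKM in ADAMTS1 cells and 76.0 FPKM in vector cells. EIF2B3, a subunit of the exchange factor for eIF2, had ADAMTS1 libraries all below the vector libraries, at 7.13 ± 0.112 and 7.87 ± 0.520 FPKM (adjusted p = 0.384).

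Among 17 bZIP partners and relatives of ATF4, 14 were tested, 0 passed and the median was −0.0064. ATF5, the closest relative of ATF4 and likewise translated under stress, was at 15.6 ± 0.238 FPKM in ADAMTS1 cells and 13.5 ± 0.439 FPKM in vector cells, opposite to ATF4, with groups apart (change 0.19 ± 0.035, limma adjusted p = 0.149). CEBPG, a heterodimer partner of ATF4, was at 16.2 ± 0.265 FPKM in ADAMTS1 cells and 17.4 ± 0.622 FPKM in vector cells (adjusted p = 0.342). The partner CEBPB was at 75.8 and 73.1 FPKM and overlapped. In a list of 10 relatives of the described genes, 8 of them tested, 0 passed, 3 were apart with higher and 2 with lower values in ADAMTS1 cells, and the median was −0.027. TRIB2, related to TRIB3, was at 9.21 ± 0.542 FPKM in ADAMTS1 cells and 11.7 ± 0.712 FPKM in vector cells (change −0.31 ± 0.057, adjusted p = 0.153).

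Of 37 stress targets outside the 10 genes, 26 were tested, 0 passed by limma, and the median was −0.020. In ADAMTS1 cells 4 were apart with lower and 3 with higher values. Some of these genes, among them ATF5, CEBPG, ATF3, PPP1R15A, SLC7A11 and VEGFA, are also counted in other lists described here. VEGFA, an angiogenic factor that hypoxia also induces, was at 10.4 ± 0.816 FPKM in ADAMTS1 cells and 14.3 ± 0.569 FPKM in vector cells (change −0.42 ± 0.058, adjusted p = 0.0922). MAP1LC3B, an autophagosome protein, was at 25.2 ± 1.40 FPKM in ADAMTS1 cells and 21.4 ± 0.812 FPKM in vector cells (change 0.23 ± 0.048, adjusted p = 0.185). The stress hormone GDF15 was scarce, at 0.136 and 0.146 FPKM, and FGF21 was listed at 0 in all ADAMTS1 libraries and averaged 0.103 FPKM in vector cells. The factor ATF3 was at 1.38 and 1.40 FPKM.

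Of 11 transporters tested from a list of 12, 0 passed and the median was −0.055. In ADAMTS1 cells 4 were apart with lower and 0 with higher values, against 10.6% and 8.15% of all tested genes. SLC7A5, the large neutral amino acid transporter, was at 131 ± 1.79 FPKM in ADAMTS1 cells and 141 ± 5.12 FPKM in vector cells (change −0.11 ± 0.031, limma adjusted p = 0.275), while the cystine transporter SLC7A11 had a change of 0.0072 ± 0.038. Of 20 cytosolic aminoacyl-tRNA synthetases, all tested, 0 passed and the median was −0.032. Among the synthetases 6 were apart with lower and 0 with higher values in ADAMTS1 cells, against the same shares of all tested genes. Those with the largest changes were CARS1 (8.74 ± 0.308 FPKM in ADAMTS1 cells and 9.92 ± 0.611 FPKM in vector cells), AARS1 (26.1 ± 0.394 and 28.2 ± 0.352 FPKM) and GARS1 (11.0 ± 0.0752 and 11.9 ± 0.329 FPKM), with adjusted p of 0.296, 0.219 and 0.326.

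The other arms of the unfolded protein response, which act through IRE1 and ATF6, had 27 of 28 genes tested, 0 passing by limma, 3 apart in each direction and a median of 0.0074. The chaperone gene HSPA5 was at 265 ± 8.08 FPKM in ADAMTS1 cells and 247 ± 1.88 FPKM in vector cells (change 0.10 ± 0.027, adjusted p = 0.238), opposite to ATF4. SYVN1, a ligase of protein degradation at the endoplasmic reticulum, was at 11.8 ± 0.115 and 12.8 ± 0.269 FPKM, and WFS1 was at 4.93 ± 0.365 and 5.77 ± 0.393 FPKM.

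Lists tied to single members were set beside them. Of 25 mTORC1 regulators 21 were tested, 0 passed and the median was 0.0013; RPTOR, the scaffold of the complex that DDIT4 and SESN2 restrain, was at 13.0 ± 0.119 FPKM in ADAMTS1 cells and 14.9 ± 0.476 FPKM in vector cells (change −0.18 ± 0.034, limma adjusted p = 0.155). FLCN was at 6.37 ± 0.128 and 5.69 ± 0.542 FPKM and AKT1S1 at 18.0 ± 0.421 and 17.4 ± 0.154 FPKM, both apart with higher values in ADAMTS1 cells. Of 11 glutathione genes 8 were tested, 0 passed and the median was −0.0040; GCLM, the modifier subunit of the first enzyme of glutathione synthesis, was at 33.7 ± 1.21 FPKM in ADAMTS1 cells and 30.7 ± 0.656 FPKM in vector cells (adjusted p = 0.244), and the synthetase GSS at 25.9 ± 0.189 and 26.4 ± 0.207 FPKM.

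DDIT4 answers to hypoxia and glucocorticoids in many cells. Of 24 hypoxia-inducible genes 21 were tested, 0 passed by limma and the median was −0.10. In ADAMTS1 cells 10 were apart with lower and 1 with higher values, against 10.6% and 8.15% of all tested genes. The 1 with higher values was LOX, at 7.68 ± 0.318 FPKM in ADAMTS1 cells and 7.01 ± 0.248 FPKM in vector cells (limma adjusted p = 0.374). The summed level of the list was 278 to 283 FPKM in ADAMTS1 libraries and 295 to 314 FPKM in vector libraries. Besides VEGFA, the list's largest changes in genes apart with a mean of at least 5 FPKM were those of STC1, at 7.66 ± 0.113 FPKM in ADAMTS1 cells and 9.83 ± 0.762 FPKM in vector cells, and NDRG1, at 7.94 ± 0.331 and 9.53 ± 1.17 FPKM (adjusted p = 0.124 and 0.326). Of 8 glucocorticoid-induced genes 7 were tested, 0 passed and the median was 0.0029, with FKBP5 at 7.61 and 7.58 FPKM. The part of a hypoxia response in the level of DDIT4 was not tested.

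**Figure D4:**
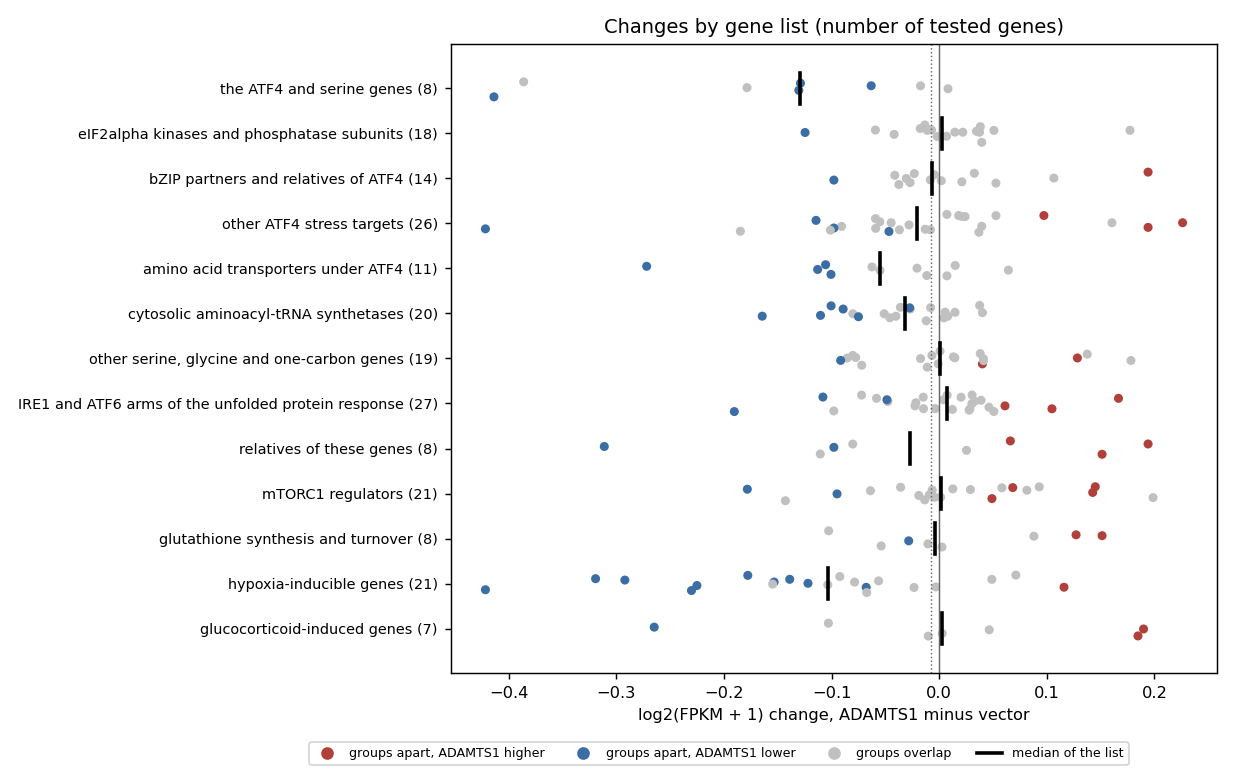
Change of every tested gene (points; horizontal axis log2(FPKM + 1), ADAMTS1 minus vector) in 13 gene lists with the number tested in brackets; black bars are list medians and the dotted line is the median of all tested genes (−0.0078). The described genes and the hypoxia-inducible genes have the lowest medians shown, −0.13 and −0.10, and the other medians lie between −0.055 and 0.0074. Some genes are in several lists.

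Profiles over the 6 libraries were compared with those of ATF4 and DDIT4, each centred on its own mean, by the root mean square distance on the log2(FPKM + 1) scale among 6956 other genes with a mean of at least 5 FPKM. The nearest to ATF4 were PSME1 (distance 0.0072), LPIN2 (0.015), SH3GLB2 (0.016), LEMD3 (0.016) and MAP2K1 (0.016), with changes of −0.12, −0.11, −0.13, −0.13 and −0.12. Among the 5 nearest to DDIT4 were VEGFA (0.093), STC1 (0.098), CD82 (0.098) and LAMA5 (0.10), with changes of −0.42, −0.32, −0.38 and −0.30. VEGFA and STC1 are also in the hypoxia-inducible list, where they were named for their large changes. Genes with changes of like size lie near each other by this distance. The share of hypoxia-inducible genes among those compared was not computed. CHAC1, SESN2, ASNS and PHGDH were below 5 FPKM and not compared.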

How the data were processed

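Libraries were made by standard Illumina methods from total RNA isolated with a Trizol kit, per the labels' protocols. The authors deposited FPKM per gene and library; FastQC, HISAT2, StringTie and hg38 are named per the submitters' processing notes, without versions or roles. The annotation, RNA selection and strand setting are not given in the sources used here. FPKM shows levels relative to the library and is no count, so no count test was used. From 32119 entries, 284 repeats of a symbol were dropped for the one with the highest mean. Relative depth came from the commonest ratio of values between 0.02 and 0.5 FPKM, shared by at least 637 of 5439 to 6211 genes in each of 15 library pairs. limma 3.58.1 in R 4.3.3 (lmFit, eBayes with trend) compared the groups on log2(FPKM + 1) for genes with a mean of at least 1 FPKM, two-sided, adjusted by Benjamini-Hochberg over all tested genes. It was tried on simulated data whose planted changes exceeded those of the described genes in the main fit. Its power for smaller changes was thus not measured. The pseudocount reduces changes of low genes. Lists were described by counts and medians, without set tests. Some genes are in several lists and are counted in each. "Apart" means that the groups did not overlap. Of all tested genes, 10.6% were apart with lower and 8.15% with higher values in ADAMTS1 cells. From each list the genes past the threshold were to be named, or otherwise up to 3 with the largest change among those apart with a mean of at least 5 FPKM; others named were chosen for their role after values were seen. The genes and lists were chosen with earlier results of these data known. Python 3.11.15 and Matplotlib 3.10.9 were used for tables and plots. One gene that the rule on similar profiles names is not reported here.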

Additional observations from a re-analysis of the deposited data

How the results depend on the processing

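The 8 tested genes were refitted under 14 alternatives, 110 changes in all, and 0 passed the adjusted threshold; the lowest adjusted p was 0.0949, for ATF4 among genes with a mean of at least 5 FPKM. ATF4, DDIT4, TRIB3, CHAC1, PSAT1 and SHMT2 kept a negative change in each. With 1 library left out, DDIT4 ranged from −0.51 to −0.32, CHAC1 from −0.53 to −0.26, DDIT3 from −0.078 to 0.098 and SESN2 from −0.13 to 0.078. The sign of DDIT3 turned without ADAMTS1 replicate 3 (−0.078) or vector replicate 3 (−0.046), and that of SESN2 without ADAMTS1 replicate 1 (0.011), vector replicate 1 (0.078) or vector replicate 3 (0.00064).

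Over all tested genes, the count of 8 was 1 with no filter on low values and 31 at a mean of at least 5 FPKM. It was 3 with a common sum of FPKM, 2 without trend, and 1 to 5 with 1 library left out. With the replicate number as a block the count was 1. The filters also changed the number of genes tested, to 31835 with none and 6957 at 5 FPKM. The cause of these differences in the count was not tested. The labels give same-numbered libraries a common number and nothing more. Their deviations from the group means correlated at −0.0022, 0.018 and −0.093. These values cannot tell whether such libraries shared a culture or a batch. ASNS and PHGDH had a change only with no filter.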

Other observations

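In the list of mesenchymal genes used to check the line, all 8 were tested, 0 passed by limma and the median change was 0.031; 2 were apart with higher and 2 with lower values in ADAMTS1 cells. SNAI2, which encodes the transcription factor Slug, was at 6.59 ± 0.144 FPKM in ADAMTS1 cells and 5.02 ± 0.215 FPKM in vector cells (change 0.33 ± 0.045, adjusted p = 0.0922). LOXL2, a matrix cross-linking enzyme, was at 56.9 ± 1.32 FPKM in ADAMTS1 cells and 67.5 ± 2.76 FPKM in vector cells (change −0.24 ± 0.035, adjusted p = 0.0922). The receptor kinase gene AXL was at 279 ± 3.03 FPKM in ADAMTS1 cells and 300 ± 14.5 FPKM in vector cells (adjusted p = 0.342).

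Of the 13 mitochondrially encoded genes, all tested, 0 passed by limma and the median change was 0.020. MT-CYB was at 2426 ± 55.6 FPKM in ADAMTS1 cells and 2685 ± 31.6 FPKM in vector cells (change −0.15 ± 0.027, adjusted p = 0.155). MT-ND4, a subunit of complex I, was at 5734 ± 76.7 FPKM in ADAMTS1 cells and 5358 ± 110 FPKM in vector cells (adjusted p = 0.270), and MT-ND2 at 3323 ± 15.6 and 3499 ± 25.3 FPKM (adjusted p = 0.308). The summed level of the 13 genes overlapped between the groups.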
